A study of Mus musculus with 6 samples.

Results

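The 10 genes described here encode the PPAR, RXR, LXR and thyroid hormone receptors, a set of nuclear receptors that bind DNA largely as pairs with RXR. They were taken by gene symbol from a table of 37477 Ensembl gene IDs measured by RNA sequencing of mouse quadriceps, and each symbol matched 1 ID. The libraries came from C57BL/6 mice of 20 weeks: 3 from wild-type mice (WT) and 3 from mice with a muscle-specific knockout of estrogen receptor alpha, called MERKO in the study and KO here. Neither the promoter that drives the deletion nor the alleles the WT mice carry is given in the sources used here. Whether a library is a single animal is not stated, so the p-values reflect how much these libraries vary, which may be technical. In bulk tissue, fewer cells of a type cannot be told apart from less RNA per cell.

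These receptors are transcription factors switched by small lipophilic ligands. Fatty acids and their derivatives bind the PPARs, oxysterols bind the LXRs, the thyroid hormone T3 binds the thyroid hormone receptors, and RXR, whose ligands include 9-cis retinoic acid, is the common partner. In skeletal muscle the PPARs are known for driving fatty acid oxidation genes, the LXRs for cholesterol efflux and lipogenic genes, and T3 for myosin and calcium pump genes that set fibre properties.

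Total counts per library ranged from 7388365 to 8560244. The knocked-out gene Esr1 had 41 to 50 counts in the WT and 16 to 22 in the KO libraries, without overlap, a log2 difference of -1.45 ± 0.23 (SE). Its adjusted p was 0.145 by edgeR's quasi-likelihood test used throughout here, and 0.000152 in the authors' deposited table. Muscle fibre markers were abundant in every library, with summed levels of 227563 to 267957 CPM (counts scaled to a common library size) in WT and 215024 to 236817 in KO for 14 genes. Over all libraries the slow-fibre myosin gene Myh7 was at 18715 to 23484 CPM. The fast myosin genes were lower, Myh2 at 9037 to 10493, Myh1 at 2823 to 4713 and Myh4 at 194 to 587 CPM. The slow troponin gene Tnnc1, also a slow-fibre marker, had 0 or 1 counts in every library, and the reason was not tested. Whether this slow-fibre profile fits the quadriceps label was not tested. Of 4 hepatocyte markers, 2 (Apoa1 and Ttr) were at 0 in all libraries, and their summed level was at most 0.273 CPM. The 7 cardiac markers summed to 2140 to 2603 CPM in WT and 2299 to 2618 in KO. Nearly all of it was Myh6, at 2123 to 2606 CPM. Myh6 is closely related in sequence to the slow-fibre myosin gene Myh7. How multi-mapped reads were treated is not given, so Myh6 counts are uncertain. The cardiac genes Tnnt2 and Myl4 were detected in every library, at 2.78 to 6.97 and 6.27 to 9.38 CPM, and Myl7 was at 0 in all, where 0 allows up to 3 counts. Of the 3 cardiac markers tested, 0 leaned higher and 3 lower, with 0 called. Their median log2 difference was -0.29, between -0.41 and -0.21 with 1 library left out.

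No receptor of the set passed the test in either direction. All 10 passed the filter on low counts, and 0 of 10 were called at an adjusted p of 0.05 (edgeR), where 0 of 13848 genes were (0%). An unadjusted p under 0.05 was reached by 590 genes, and DESeq2 called 2 genes, both fast-fibre genes described below. The receptors' adjusted p-values ran from 0.989 to 1.00. At an unadjusted p under 0.05 stood 1 of 10, Nr1h3, against 4.26% of all genes. The KO values of Nr1h3 all lay above its WT values, as they did for 4.96% of all genes. No receptor had all KO values below WT, as 5.45% of all genes did. Of the 10, 5 leaned higher and 5 lower, and their median log2 difference was -0.05, against 0.00 over all genes tested. That median turned to 0.03 without WT replicate 1 and to 0.03 without KO replicate 2, and with 1 library left out 3 to 6 receptors leaned higher. The 95% intervals rest on the spread of these libraries, which may be technical, and hold for each gene singly. All 10 lay within a 2-fold change either way, and 5 of 10 within 1.5-fold.

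**Figure D1:**
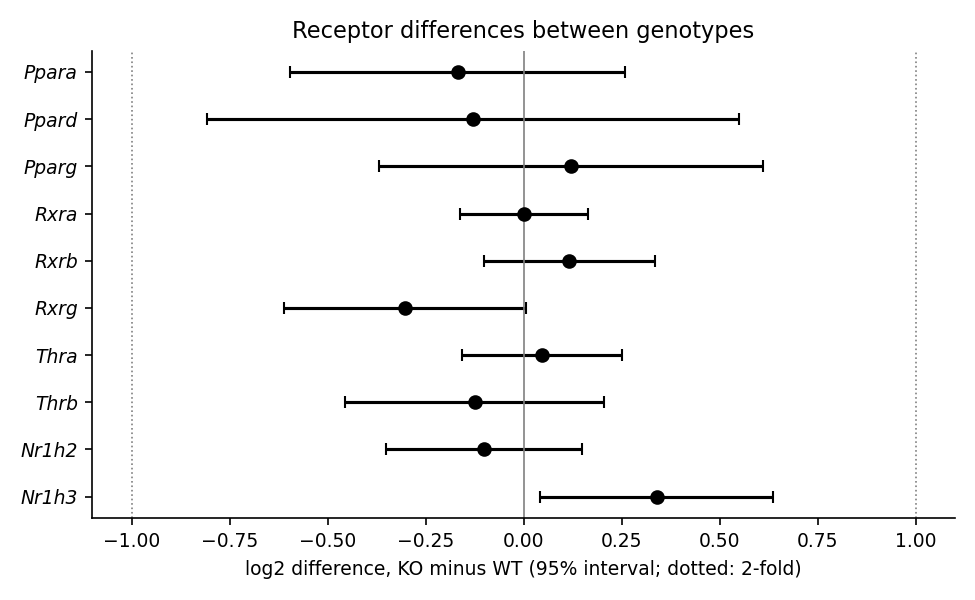
Log2 difference of each receptor, KO minus WT (horizontal axis), with its 95% interval from edgeR's quasi-likelihood fit; dotted lines mark a 2-fold change. Every interval crosses 0 except that of Nr1h3 (0.04 to 0.64), and all lie within 2-fold.

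Among the PPARs, which sense fatty acids, Ppara was the main transcript in this muscle. PPAR alpha drives the genes of mitochondrial and peroxisomal fatty acid oxidation. Ppara (chromosome 15, 85734983 to 85802819, plus strand, mm10) was at 45.7, 48.3 and 39.4 CPM in the WT libraries, in replicate order here and below. The KO libraries had 31.6, 51.6 and 35.4 CPM. KO replicate 2 held the highest value of all libraries and KO replicates 1 and 3 the lowest, so the groups overlapped. The log2 difference was -0.17 ± 0.18 (SE), with an interval from -0.60 to 0.26. Counting noise was small beside this spread: the KO values varied with a coefficient of variation (CV) of 26.9%, where the counts alone give 5.62%. Without KO replicate 2 the log2 difference was -0.41, with an unadjusted p of 0.00206 (adjusted p = 0.448, edgeR), which did not pass either.

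Ppard encodes PPAR delta, known in muscle for its part in endurance adaptation and fatty acid use. It had few counts, 23, 11 and 20 for WT and 24, 15 and 15 for KO (chromosome 17, 28232700 to 28301474, plus strand). The groups overlapped fully, and the log2 difference was -0.13 with an interval from -0.81 to 0.55, the widest of the 10. Counting alone gives a CV of 24.5% in WT at this depth, and the values do not tell apart differences within this interval.

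Pparg encodes PPAR gamma, the regulator of fat cell differentiation. Its values were 4.42, 6.15 and 3.93 CPM for WT, against 5.68, 3.99 and 6.07 CPM for KO (chromosome 6, 115360951 to 115490399, plus strand). High and low libraries occurred in both groups, and the log2 difference was 0.12 ± 0.23 (SE). The adipocyte markers, 9 genes of which 8 were tested, summed to 264 to 348 CPM in WT and 287 to 324 CPM in KO, which overlapped. Most of this sum was Fabp4, at 204 to 255 CPM in WT and 197 to 232 in KO, with a log2 difference of -0.10. Of the 8, 6 leaned higher and 2 lower, and the median log2 difference was 0.29. It was 0.09 without KO replicate 2 (4 higher and 4 lower), 0.14 without WT replicate 1 and 0.44 without WT replicate 3. Plin1, which coats lipid droplets of fat cells, averaged 6.83 ± 0.819 CPM for WT against 8.77 ± 1.22 for KO (SD, n = 3 each), and its KO values lay above its WT values. Cfd (adipsin) had a log2 difference of 0.30 and the amino acid transporter gene Slc7a10 one of 0.74. The part of fat cells in the Pparg values was not tested.

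**Figure D2:**
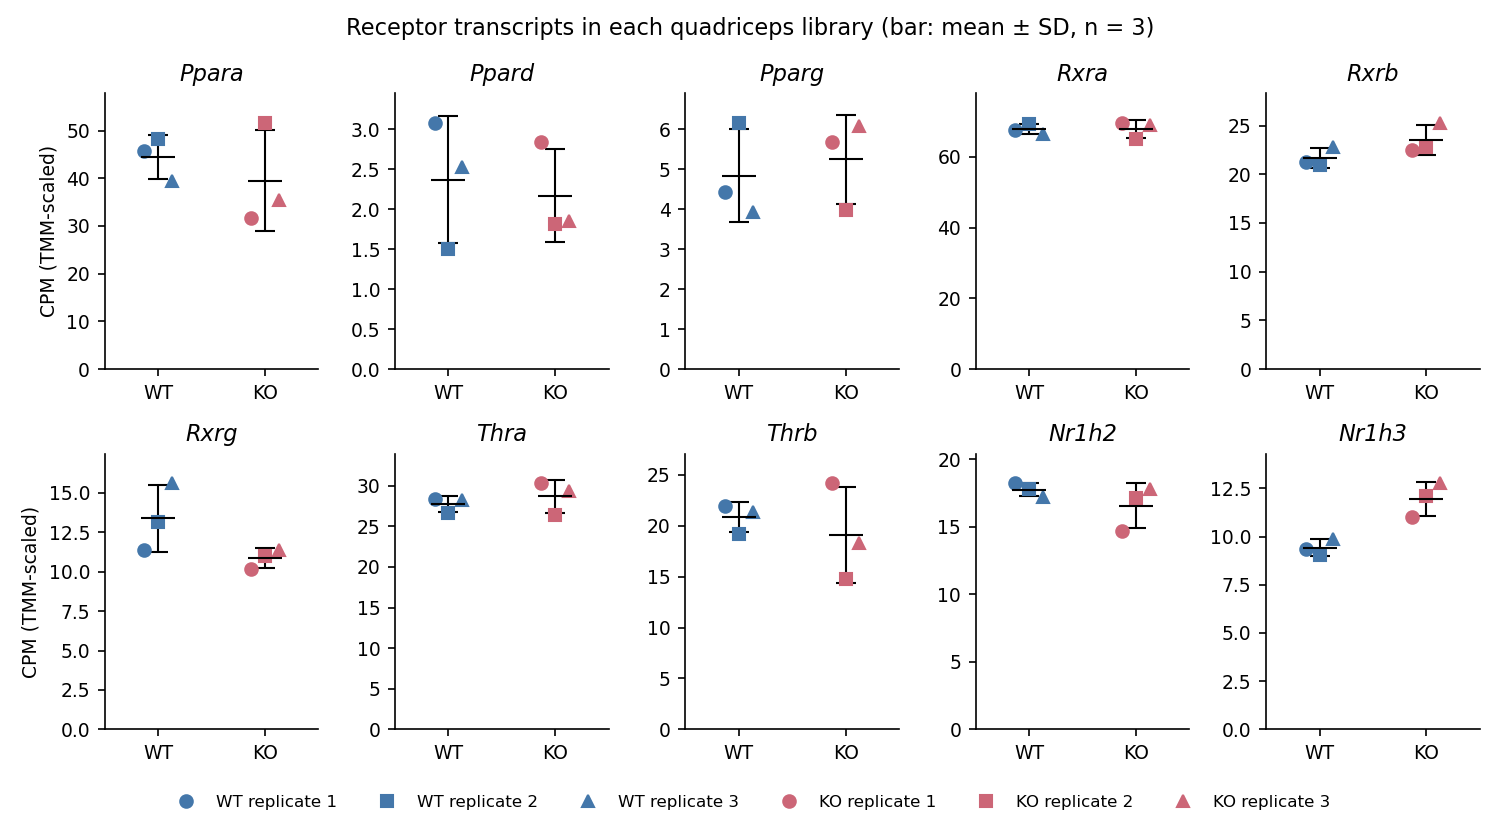
CPM of each receptor (vertical axis, from 0) in the 3 WT and 3 KO libraries; points are libraries with a symbol for each replicate number, and bars are the mean ± SD. The groups are apart for Nr1h3, touch for Rxrg and overlap for the other 8 genes, with KO replicate 2 the highest KO library for Ppara and the lowest for Pparg and Thrb.

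Of the RXRs, the shared partners, Rxra was the steadiest gene of the set. RXR alpha is the widely expressed form. Rxra (chromosome 2, 27676440 to 27762957, plus strand) was at 67.6, 69.3 and 66.6 CPM for WT, and 69.6, 65.1 and 69.0 CPM for KO, which overlapped. The log2 difference was 0.00 ± 0.08 (SE), with an interval from -0.16 to 0.16. Its CV was 2.06% in WT and 3.56% in KO, below the 4.42% and 4.22% that counting alone gives. Rxrb, which encodes RXR beta, another widely expressed form, stood at 21.3, 20.9 and 22.8 CPM for WT against 22.5, 22.8 and 25.3 CPM for KO (chromosome 17, 34031812 to 34038399, plus strand). WT replicate 3 lay above the lowest KO value, and the log2 difference was 0.12, with an interval from -0.10 to 0.34.

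Rxrg encodes RXR gamma, a form found mainly in skeletal muscle and the nervous system. Rxrg (chromosome 1, 167598384 to 167639623, plus strand) was at 11.4, 13.1 and 15.6 CPM for WT, and 10.2, 11.0 and 11.4 CPM for KO. The groups met only at WT replicate 1 and KO replicate 3, with 85 and 92 counts. The log2 difference was -0.30 ± 0.15 (SE), the lowest of the set, with an interval from -0.61 to 0.01 and an unadjusted p of 0.0537 in edgeR's quasi-likelihood test. WT replicate 3 carried part of it: without that library the difference was -0.18.

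The LXRs sense oxysterols and switch on cholesterol export. Nr1h3 encodes LXR alpha, which is prominent in liver, fat and macrophages, and it had the smallest p of the set. WT libraries held 70, 66 and 78 of its counts and KO libraries 93, 100 and 103, or 9.38, 9.03 and 9.89 CPM against 11.0, 12.1 and 12.8 CPM (chromosome 2, 91184061 to 91202834, minus strand). All KO libraries stood above all WT libraries, at 1.27 times the WT mean. The log2 difference was 0.34 ± 0.14 (SE), with an interval from 0.04 to 0.64. By edgeR its unadjusted p was 0.0281 and 0.989 after adjustment over all genes. In DESeq2 its unadjusted p was 0.102. With 1 library left out the difference ran from 0.29 to 0.39, and it never passed over all genes. Another gene, Gm13783, overlaps 1.35% of its exonic bases.

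Macrophage markers were read beside Nr1h3. Of 10 genes tested, 7 leaned higher and 3 lower, and the median log2 difference was 0.13. It was 0.017 without WT replicate 2 (5 higher and 5 lower) and 0.22 without WT replicate 3. Their summed level was 124 to 166 CPM in WT and 151 to 175 CPM in KO, which overlapped. Mrc1, the mannose receptor of resident macrophages, averaged 21.05 ± 5.30 CPM for WT against 28.1 ± 1.27 for KO (SD, n = 3 each), and every KO library exceeded every WT library. It did not pass (adjusted p = 0.989, edgeR). The complement gene C1qb and the lysozyme gene Lyz2 had log2 differences of 0.26 and 0.15, and the macrophage gene Cd68 one of -0.36. The part of macrophages in the Nr1h3 values was not tested.

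Nr1h2 encodes LXR beta, the widely expressed form. It stood at 18.2, 17.8 and 17.2 CPM for WT against 14.7, 17.2 and 17.8 CPM for KO (chromosome 7, 44549616 to 44553951, minus strand). KO replicate 1 lay below the rest and the other values overlapped, with a log2 difference of -0.10 and an interval from -0.35 to 0.15.

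The thyroid hormone receptors repress or activate T3 target genes according to whether hormone is bound. Thra encodes TR alpha, the form that predominates in muscle and heart, and Thrb encodes TR beta, which predominates in liver and the pituitary. Thra stood at 28.4, 26.7 and 28.3 CPM for WT against 30.3, 26.5 and 29.3 CPM for KO (chromosome 11, 98740638 to 98769006, plus strand), with a log2 difference of 0.05 and an interval from -0.16 to 0.25. The groups overlapped. The clock gene Nr1d1 lies on the opposite strand and overlaps 5.70% of the exonic bases of Thra. The standard form of the kit does not mark strand, and without strand reads there cannot be assigned. Nr1d1 itself averaged 23.9 ± 3.96 CPM for WT against 25.3 ± 2.74 for KO (SD, n = 3 each), and its relative Nr1d2 had a log2 difference of 0.05. Thrb stood at 21.97, 19.1 and 21.3 CPM for WT against 24.1, 14.7 and 18.3 CPM for KO (chromosome 14, 17660261 to 18038090, plus strand). The KO libraries spread to both sides of WT, with a CV of 24.9% against 8.09% from counting, and the log2 difference was -0.12 ± 0.15 (SE).

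The sequence before the start sites is shown for Nr1h3, whose groups did not overlap, at the upstream one of the 2 starts given for it. It is also shown for both starts given for Rxrg, whose share of its family was lower in every KO library. Each run gives the 250 bases before the start, 5′ to 3′ on the gene's own strand, from RefSeq (GRCm38.p6, the assembly that mm10 names), with the receptor half-site AGGTCA in capitals on either strand. Nr1h3 lies at chr2:91195117-91195366 on the minus strand, and Rxrg at chr1:167598112-167598361 and chr1:167618015-167618264 on the plus strand. The Nr1h3 window lies inside the annotated span of the gene, whose 5′ end is at 91202834, and the sequence before that end was not scanned.
Nr1h3: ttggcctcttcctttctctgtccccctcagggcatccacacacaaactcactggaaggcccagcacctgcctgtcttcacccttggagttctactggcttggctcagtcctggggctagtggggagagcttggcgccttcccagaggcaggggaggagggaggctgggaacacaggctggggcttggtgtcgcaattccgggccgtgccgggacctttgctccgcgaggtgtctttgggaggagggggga
Rxrg, first start: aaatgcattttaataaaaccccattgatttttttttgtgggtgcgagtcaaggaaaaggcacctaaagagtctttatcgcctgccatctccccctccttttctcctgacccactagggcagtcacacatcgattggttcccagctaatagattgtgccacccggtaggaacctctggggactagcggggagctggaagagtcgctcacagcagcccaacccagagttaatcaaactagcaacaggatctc
Rxrg, second start: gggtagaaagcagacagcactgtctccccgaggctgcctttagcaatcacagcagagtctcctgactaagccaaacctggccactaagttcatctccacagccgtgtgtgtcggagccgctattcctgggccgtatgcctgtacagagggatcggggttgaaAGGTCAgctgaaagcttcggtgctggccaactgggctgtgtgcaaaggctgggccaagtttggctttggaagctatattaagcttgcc
The half-site is the element that these receptors bind, usually as a pair of copies. It starts 88 bases before the second start of Rxrg. Windows of 300 bases, with 50 after the start, were given for 9 of the 10 receptors and were 16 in number. A half-site on either strand was in 5 of 16 windows, belonging to Rxrg, Rxra, Pparg (at a pair of its starts) and Thrb, and in 16.3% of all 32851 promoter windows. The direct repeat with 1 base between copies, AGGTCANAGGTCA, bound by PPAR with RXR, was in 0 of 16 windows and in 0.0396% of all. The direct repeat with 4 bases between copies, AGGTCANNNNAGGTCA, bound by LXR or TR with RXR, was in 0 of 16 and in 0.0152% of all. The palindrome GGTCANNNTGACC, bound by estrogen receptors, was in 0 of 16 and in 0.0700% of all. A match is a description of these letters and not a binding site.

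Levels of the 10 transcripts were compared per kilobase of annotated exon. Rxra had the highest mean over the 6 libraries, 12.4 ± 0.323 CPM per kb (SD, n = 6), followed by Ppara with 10.9 ± 2.03, and these overlapped. Thra came next with 6.12 ± 0.323, apart from Ppara. Rxrb with 5.69 ± 0.385, Rxrg with 5.27 ± 0.853, Nr1h2 with 5.11 ± 0.380 and Nr1h3 with 4.25 ± 0.601 CPM per kb formed a series in which each overlapped its neighbour, and Rxrb also overlapped Thra. Thrb stood lower at 2.69 ± 0.443, apart from Nr1h3. Pparg with 1.71 ± 0.353 was below Thrb in 6 of 6 libraries, though their ranges met, and Ppard with 0.302 ± 0.0846 CPM per kb was apart from all others. With the longest transcript as the length, Ppara and Thra overlapped, at 12.3 and 11.5 CPM per kb, and Thra stood apart from Rxrb. The order was otherwise the same except that Nr1h2 came before Rxrg.

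**Figure D3:**
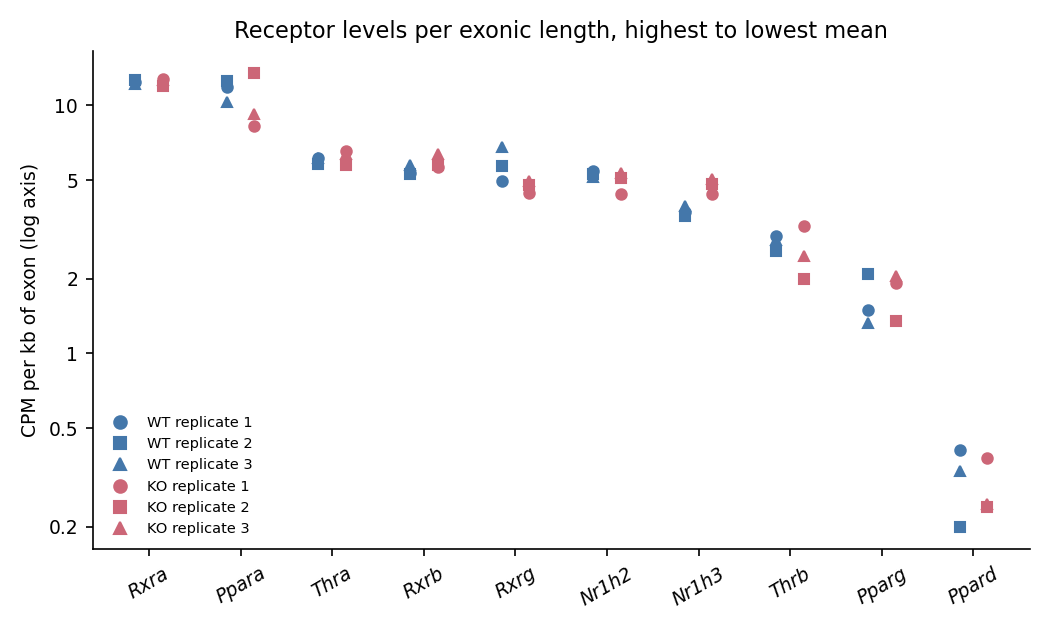
CPM per kilobase of exon on a log axis for the 10 receptors, ordered by mean; each point is a library, WT left and KO right of each tick. Rxra and Ppara are at the top near 12.4 and 10.9, and Ppard is at the bottom near 0.302.

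RXR transcripts summed to 22.7 to 24.7 CPM per kb in WT and 22.5 to 23.9 in KO. Those of its partners in the set, the PPARs, LXRs and thyroid hormone receptors together, summed to 30.02 to 32.1 in WT and 29.1 to 32.7 in KO. The ratio of RXR to partner transcripts was 0.756 ± 0.060 in WT and 0.750 ± 0.054 in KO (SD, n = 3 each), with overlapping groups. Its size depends on the length used, here annotated exons, and it was not computed with the longest transcript.

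The makeup of each family was then compared as each member's share of the family's counts per kb, which does not depend on how libraries are scaled. The size of a share does depend on the length used, here annotated exons. Each of the 8 shares had its group means compared by an exact permutation test, two-sided. An exact test of 3 against 3 libraries cannot go below p = 0.1, so none could pass. The largest difference was that of Nr1h3, which took 40.7%, 40.4% and 43.3% of LXR transcripts in WT and 50.005%, 48.4% and 48.8% in KO, without overlap, a difference of 7.61 percentage points. Rxrg took 21.8%, 24.1% and 27.5% of RXR transcripts in WT and 19.4%, 21.3% and 20.7% in KO, a difference of -4.002 percentage points, again without overlap. Rxrb took 23.6%, 22.2% and 23.2% in WT and 24.8%, 25.6% and 26.6% in KO, also apart. Each of these 3 shares had an exact permutation p of 0.1, and 0.267 adjusted over the 8 shares. Shares within a family are tied to each other, so the higher Rxrb and lower Rxrg shares are not separate results. The Nr1h3 share rests on the same counts as its CPM values above. Among single genes, KO values in CPM all lay above WT for 4.96% and below WT for 5.45% of all genes.

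The other 5 shares overlapped between the groups. Ppara took 85.6% ± 0.857 of PPAR transcripts in WT and 82.5% ± 6.03 in KO, and Pparg 12.0% ± 1.75 and 15.01% ± 5.23 (SD, n = 3 each). KO replicate 2 stood away from the other KO libraries in both, at 89.4% for Ppara and 8.98% for Pparg. Ppard took 2.38% ± 0.898 and 2.44% ± 1.03, Rxra 52.5% ± 2.80 and 53.9% ± 1.68 of the RXRs, and Thrb 31.8% ± 0.819 and 29.0% ± 3.80 of the thyroid hormone receptors (SD, n = 3 each). Their exact permutation p-values ran from 0.4 to 1.

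**Figure D4:**
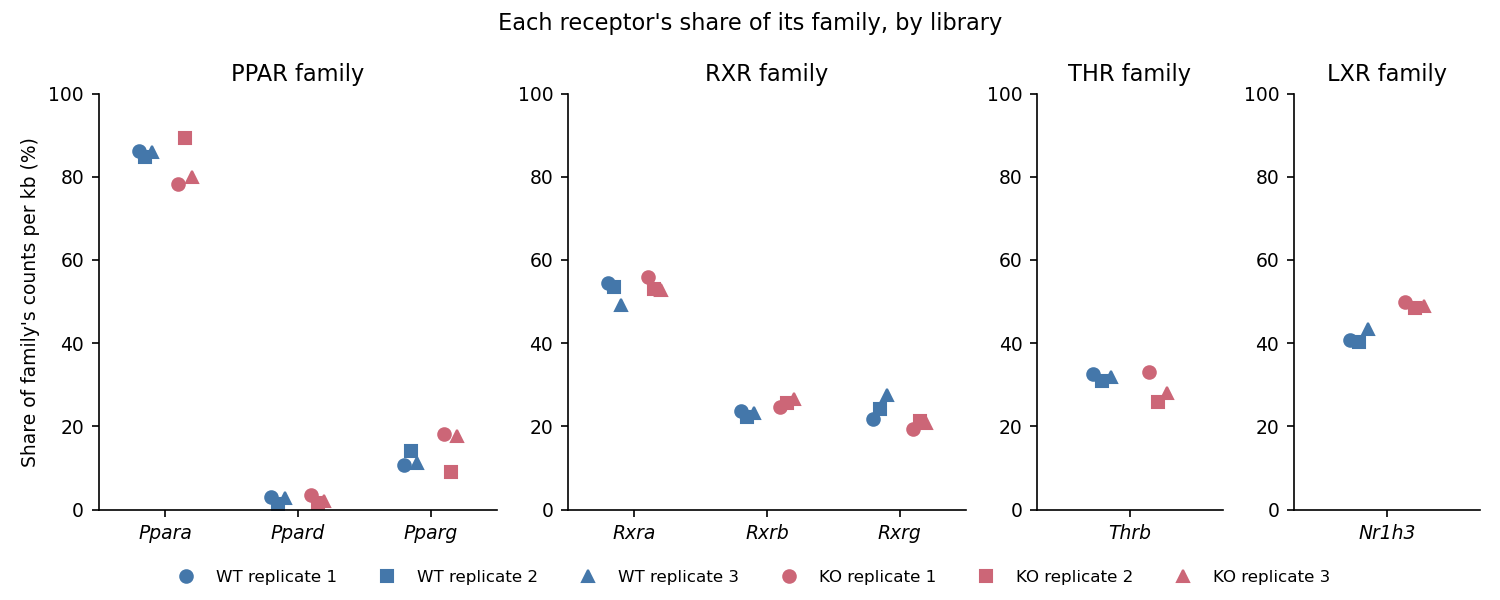
Share of each receptor in its family's counts per kb of exon, in percent (vertical axis, 0 to 100), for each WT and KO library; for families of 2 the other member is the remainder. The KO points lie above the WT points for Nr1h3 and Rxrb and below them for Rxrg.

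Genes that the PPARs are known to switch on leaned lower in KO, but none passed the test. Of 32 target genes, 29 were tested: 0 were called in either direction, 6 leaned higher and 23 lower, and the median log2 difference was -0.14. For comparison, 50.7% of all genes tested were lower and their median was 0.00. Single libraries decided the size of this median, which was -0.02 without WT replicate 3 (9 higher and 20 lower), -0.07 without KO replicate 1 and -0.22 without WT replicate 1 or without KO replicate 2. The acyl-CoA synthetase gene Acsl1 was at 1046 ± 108 and 909 ± 59.9 CPM, the carnitine transporter gene Slc22a5 at 26.3 ± 0.235 and 22.3 ± 2.30, and the fatty acid transporter gene Cd36 at 1558 ± 165 and 1351 ± 164, in WT and KO (SD, n = 3 each). KO values of Slc22a5 lay below its WT values, and those of the other pair overlapped. Pdk4, the kinase that shuts off pyruvate oxidation, was at 1974, 1943 and 2534 CPM in WT and 1403, 2442 and 1742 CPM in KO. Ucp3, the mitochondrial uncoupling protein of muscle, was at 94.6, 111 and 98.5 CPM in WT and 72.2, 115 and 70.8 CPM in KO. Exons of Gm44502 overlap 81.4% of the exonic bases of Cpt1b, which had 25 to 42 counts. Those of Dvl2 overlap 42.9% of the exonic bases of Acadvl. Both targets leaned higher, and both counts are uncertain.

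Within each group, 1 library led the PPAR targets, a pattern noticed after the values were seen. KO replicate 2 was the highest KO library for 23 of 29 PPAR targets (79.3%), and for 34.2% of all genes tested. WT replicate 3 was the highest WT library for 24 of 29 (82.8%), and for 34.6% of all genes. WT replicate 3 was also the highest WT library for 6 of 7 fibroblast, 6 of 8 adipocyte and 7 of 10 macrophage markers, and for 1 of 14 skeletal fibre and 0 of 9 slow fibre markers. KO replicate 2 was the highest KO library for 4 of 8 adipocyte, 5 of 10 macrophage and 0 of 7 fibroblast markers. The adipocyte list shares Adipoq, Plin1, Cidec and Fabp4 with the PPAR targets, so its counts are not independent of theirs. In KO replicate 2 Ppara was also at its highest, while in WT replicate 3 Ppara was the lowest of the WT libraries. The median of the targets, as log2(CPM + 1) minus each gene's mean over the 6 libraries, was 0.22 in WT replicate 3 and 0.08 in KO replicate 2, and -0.01 to -0.13 in the other 4 libraries. The part of these cell types in the PPAR target values was not tested. Genes that supply the PPARs with fatty acid ligands were 5 higher and 9 lower of 14 tested, with a median of -0.03 and 0 called. That median was 0.01 without WT replicate 3 (8 higher and 6 lower), -0.09 without WT replicate 2 and -0.11 without KO replicate 2. This list holds Acsl1, Cd36, Fabp3, Fabp4 and Lpl of the PPAR targets again. Pla2g6, a phospholipase, had a log2 difference of 0.38.

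**Figure D5:**
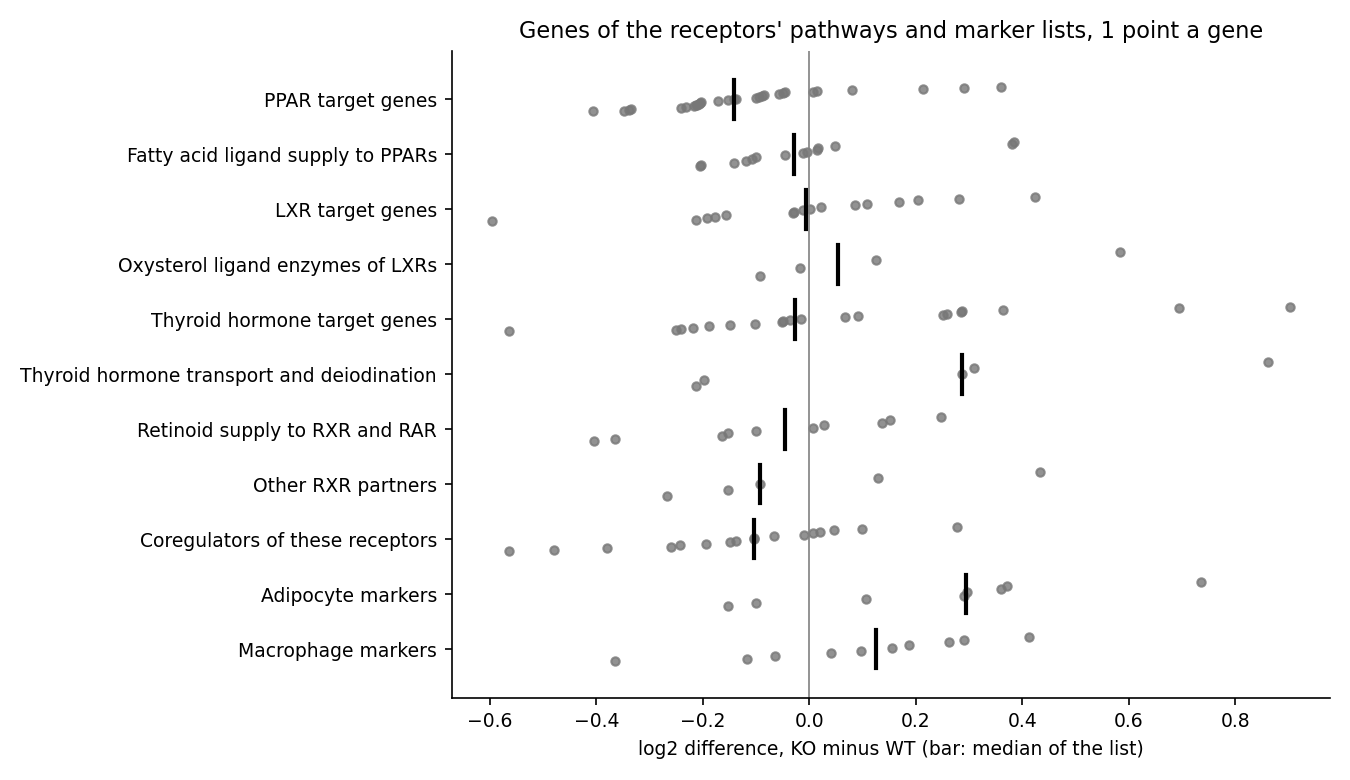
Log2 difference, KO minus WT (horizontal axis), of each tested gene of 9 pathway lists and of the adipocyte and macrophage markers; each point is a gene and each bar a list's median. No point passed over all genes in the edgeR fit; the PPAR target median lies at -0.14 and that of the LXR targets at -0.01.

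LXR target genes were evenly divided. Of 20 genes 16 were tested, 0 were called, 8 leaned higher and 8 lower, and the median was -0.01, between -0.03 and 0.02 with 1 library left out. Abca1, which exports cholesterol from cells, was at 59.5, 61.7 and 60.2 CPM in WT and 47.3, 62.7 and 48.7 CPM in KO, where KO replicate 2 was the highest of all. Srebf1, the lipogenic transcription factor gene, was at 25.2 ± 1.05 and 24.6 ± 0.632 CPM in WT and KO, and Apoe, the apolipoprotein of cholesterol transport, at 49.4 ± 5.60 and 56.9 ± 4.75 (SD, n = 3 each). The phospholipid-remodelling gene Lpcat3 had a log2 difference of -0.21. Enzymes that make or clear oxysterols and sterol ligands were mostly too low to test: 4 of 9 passed the filter, with 2 higher, 2 lower and 0 called. Among them, Hsd3b7 and Cyp39a1 had log2 differences of 0.12 and -0.09, and exons of neighbouring genes cover 99.2% of those of Hsd3b7.

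Thyroid hormone target genes were 9 higher and 11 lower of 20 tested, with a median of -0.03 and 0 called. The median changed sign with the setting: it was 0.03 without the filter on low counts and 0.08 without WT replicate 2. The 3 with the smallest p included Nnat, the imprinted proteolipid neuronatin, with 23, 24 and 30 counts in WT and 72, 45 and 41 in KO, without overlap, and an adjusted p of 0.989 (edgeR). Myh1, the fast IIX myosin, had a log2 difference of 0.36, and Klf9, a T3-induced transcription factor gene, averaged 258 ± 23.1 CPM for WT against 217 ± 27.2 for KO (SD, n = 3 each). Of the genes that carry and convert thyroid hormone, 5 of 10 were tested, 3 higher and 2 lower, with 0 called. Dio2, the enzyme that makes T3 from T4, had 68, 41 and 55 counts in WT and 90, 57 and 72 in KO, which overlapped, with a log2 difference of 0.29 and an interval from -0.14 to 0.72. The amino acid and hormone transporter gene Slc7a5 had 11, 4 and 10 counts in WT and 20, 15 and 15 in KO, and its heavy chain gene Slc3a2 had a log2 difference of -0.20. Fast and slow fibre markers, read beside these receptors because T3 acts on fibre type, had medians of 0.10 over 12 genes and -0.01 over 9; their summed levels overlapped between the groups, at 23549 to 24832 and 24681 to 25248 CPM for fast and 37778 to 44811 and 40090 to 43996 CPM for slow markers, in WT and KO. Among them the fast-fibre genes Pvalb and Actn3 had log2 differences of 0.87 and 1.38, with all KO values above WT, and the calcium pump inhibitor gene Pln one of -0.43, with all KO values below WT. Other members went the other way: the fast myosin gene Myh2 had a log2 difference of -0.15 with all KO values below WT, and the slow-fibre genes Tnni1 and Myl3 had 0.17 and 0.06. None of these passed in the edgeR fit (adjusted p of 0.989 for Pvalb, Actn3 and Pln), but Pvalb and Actn3 passed in DESeq2 (adjusted p = 0.000102 and 0.00465), where they were the only 2 genes called. Both also passed without WT replicate 1 (edgeR, adjusted p = 0.00633 and 4.96e-05). With no low-count filter Pvalb, Myh1 and Pln passed (adjusted p = 3.38e-17, 0.00132 and 0.0215, edgeR). Genes on the opposite strand cover 64.7% of Pln exons. The part of fibre type in the receptor values was not tested.

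Retinoid genes, which supply ligands to RXR and its relative RAR, were 5 higher and 5 lower of 10 tested, with a median of -0.05 and 0 called. The median was 0.09 without WT replicate 3 and -0.12 without KO replicate 1. Dhrs3, which turns retinal back into retinol, averaged 38.8 ± 2.94 CPM for WT against 34.6 ± 0.620 for KO (SD, n = 3 each), without overlap. Rbp7, a retinol-binding protein gene, and Aldh1a3, which makes retinoic acid, had log2 differences of -0.36 and -0.40 on few counts. Among other partners of RXR, 5 of 9 were tested, 2 higher and 3 lower, with 0 called. The retinoic acid receptor gene Rarb was at 5.09 ± 0.982 and 6.91 ± 1.24 CPM, the xenobiotic receptor gene Nr1i3 at 30.9 ± 1.79 and 33.8 ± 1.38, and the orphan receptor gene Nr4a1 at 2.91 ± 0.157 and 2.40 ± 1.21, in WT and KO (SD, n = 3 each). Exons of genes on the opposite strand overlap 38.4% of the exonic bases of Rarb (largely Top2b) and 74.9% of those of Nr1i3 (Tomm40l), so both counts are uncertain.

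Coregulators that these receptors recruit leaned lower more often than higher. Of 17 tested, 0 were called, 5 leaned higher and 12 lower, where 50.7% of all genes were lower, and the median was -0.10. It was -0.17 without WT replicate 3, -0.16 without KO replicate 1 and -0.08 without WT replicate 1. Their summed level was 544 to 563 CPM for WT and 461 to 515 for KO, apart. The receptors' own summed CPM was also apart, at 227.5 to 231.9 for WT and 222.5 to 227.2 for KO. In WT the most abundant coregulators were Ncor1 and Ppargc1a, which weigh most in the sum, and Ppargc1a averaged 77.3 CPM for WT and 52.2 for KO. Single-gene KO values lay below WT for 5 of 17 coregulators and above for 1, against 5.45% and 4.96% of all genes. The 1 above was the coactivator gene Ncoa2, with a log2 difference of 0.10. The acetyltransferase gene Crebbp was at 33.1 ± 1.497 and 27.6 ± 0.667 CPM, the corepressor gene Ncor1 at 142 ± 5.46 and 124 ± 5.87, and the coactivator gene Ppargc1b at 7.30 ± 1.119 and 5.24 ± 0.311, in WT and KO (SD, n = 3 each). Ppargc1a, the PGC-1 alpha gene, had 564, 576 and 613 counts in WT and 498, 539 and 264 in KO, where KO replicate 3 was lowest. Its log2 difference was -0.56 with an interval from -1.25 to 0.12.

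For the 9 receptors with a mean of at least 5 CPM, all but Ppard, the gene with the most similar profile over the 6 libraries was found. Likeness was the root mean square difference of log2 CPM values, each centred on its gene's mean, over 8474 candidate genes, so that smaller is closer and a close match among so many genes says nothing of shared control. Ppara, with its high KO replicate 2, lay nearest to Gramd1a, a sterol transfer protein gene (0.048), and Rxrg to the imprinted gene Peg3 (0.051), which was at 28.3, 31.9 and 42.0 CPM in WT and 26.3, 29.1 and 29.2 CPM in KO. Nr1h3 lay nearest to Apbb3 (0.037), at 9.91, 10.3 and 11.2 CPM in WT and 12.4, 13.7 and 14.5 CPM in KO, and Pparg to the tendon transcription factor gene Scx (0.075). Thrb lay nearest to the transcription factor gene Casz1 (0.047), at 14.7, 14.4 and 15.1 CPM in WT and 17.0, 10.4 and 12.9 CPM in KO. The remaining matches were Hnrnpab for Rxra (0.017), Ruvbl2 for Rxrb (0.013), R74862 for Thra (0.021) and Kif13b for Nr1h2 (0.024).

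The authors' deposited table was read beside these values. In the authors' deposited table the receptors' log2 fold changes ran from -0.29 for Rxrg to 0.35 for Nr1h3, the adjusted p of every member was 1, and the smallest p was 0.0360, for Nr1h3.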

How the data were processed

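Transcripts of 6 quadriceps libraries were sequenced, 3 WT and 3 KO. Per the labels' protocols, RNA was extracted in Trizol and the Illumina TruSeq RNA kit was used, whose standard form does not mark strand. The submitters' processing notes name TopHat 1.3.3, edgeR and mm10 without a role; which counter and annotation were used, and how multi-mapped reads were treated, is not given. In the table the authors deposited are raw counts per Ensembl gene, with log2 fold changes, p-values and adjusted p-values that the authors computed.

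Of 37506 rows, 29 repeats of an ID were merged. Genes passing filterByExpr (13848) were scaled by TMM and tested two-sided with edgeR 4.0.16 (robust quasi-likelihood F-test on genotype, R 4.3.3), Benjamini-Hochberg adjusted over all of them at 0.05. A standard error is the log2 difference divided by the square root of F. Exonic lengths are the union of GENCODE M21 exons. Shares were tested by exact permutation. No pair of replicates agreed within sampling noise (chi-square per gene 3.46 to 9.57), so none was counted as a repeat deposit.

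The members and lists were chosen with earlier results of these data known. Named were the members, Esr1, up to 3 genes of each list with the smallest p, and 7 fixed genes; marker genes were named by smallest p after their values were seen. A gene that this rule picks in the oxysterol list is not reported here. Of the cell marker lists, the endothelial one had 3 genes higher and 5 lower of 8 tested (median -0.07) and the fibroblast one 4 and 3 of 7 (median 0.03). The alternatives were RLE or no scaling, 2 other filters, DESeq2 1.42.0, a replicate block and leaving out each library; edgeR's newer quasi-likelihood fit and the longest transcript as length were chosen after seeing the data.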

Additional observations from a re-analysis of the deposited data

How the results depend on the processing

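No receptor passed an adjusted p of 0.05 in any of the 13 alternatives (0 of 10 in each), where the lowest adjusted p of a receptor was 0.448, for Ppara without KO replicate 2. Over all genes, the count of calls moved from 0 to 19 without the filter on low counts, to 2 in DESeq2, and between 0 and 3 with 1 library left out; those in DESeq2 were the fast-fibre genes Pvalb and Actn3, and among the listed genes Pvalb, Myh1 and Pln passed without the filter and Pvalb and Actn3 without WT replicate 1.

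The log2 differences of the receptors kept their sign under RLE or no scaling, other filters, DESeq2 and the newer fit. With 1 library left out they ran from -0.41 to -0.03 for Ppara, -0.37 to 0.10 for Ppard, -0.011 to 0.33 for Pparg, -0.017 to 0.032 for Rxra, 0.06 to 0.15 for Rxrb, -0.41 to -0.18 for Rxrg, 0.01 to 0.10 for Thra, -0.33 to 0.032 for Thrb, -0.16 to -0.02 for Nr1h2 and 0.29 to 0.39 for Nr1h3. Signs turned for Ppard without WT replicate 1, for Pparg without WT replicate 3, for Thrb without KO replicate 2 and for Rxra without WT replicate 1, WT replicate 3, KO replicate 1 or KO replicate 3; with fewer samples no receptor was called. Family shares differed, KO minus WT, by -0.51 to 0.49 percentage points for Ppard, -0.21 to 2.42 for Rxra, -6.52 to -0.89 for Ppara, 1.398 to 6.04 for Pparg, -4.90 to -1.20 for Thrb, -5.32 to -2.51 for Rxrg, 2.16 to 3.04 for Rxrb and 7.07 to 8.55 for Nr1h3. The first 2 turned sign: Ppard without WT replicate 2 or KO replicate 1, and Rxra without WT replicate 3.

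The labels give both groups replicate numbers 1 to 3. Deviations from the group means of same-numbered libraries correlated at -0.013 to 0.233 across 10005 genes, and 2 of 6 libraries correlated best with their own number, so the numbers were not taken as pairs. With the replicate block 0 genes and 0 receptors were called, as without it, and the sign-flip p of Nr1h3's share was 0.25, the smallest that 3 pairs allow. Depth limits Ppard and Pparg most, with 11 to 49 counts per library.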
